A study of Homo sapiens with 23 samples.

Results

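Mono-cultured Caco-2 cells given free fatty acids (FFAs) were compared with untreated mono-cultures, as 3 against 3 libraries of mRNA-seq. Caco-2 is a human colorectal adenocarcinoma line used as a model of the intestinal epithelium. Both groups were grown in the integrated-gut-liver-on-a-chip (iGLC), a microfluidic device with circulating medium, without HepG2 cells. The FFAs group received palmitic and oleic acid, 1 mM in total at a ratio of 1 to 2, for 1 day. The control group received 0 mM FFAs, and both groups were of the same line. The labels give 0.5% FBS in the treatment medium, whereas the paper's methods describe serum-free medium with BSA. The series holds 23 libraries of the Caco-2 and HepG2 lines in mono-culture and co-culture, with 3 libraries per group except Caco-2 co-culture control, which has 2. Expression is given in TPM, a gene's share of all transcripts after correction for its length. A gene was included if its mean reached 1 TPM in at least 1 of the mono-culture groups, which left 14468 of 60564 listed genes. The paper's methods speak of at least 2 independent experiments for mRNA-seq. Its reporting summary speaks of 3 groups of biological replicates, without naming mRNA-seq. Neither the paper nor the labels say which library came from which culture. Every p therefore measures the spread between libraries, part of which may be technical. For FFAs against control that spread was pooled over all 11 Caco-2 libraries, co-culture included, and not over the 6 compared alone.

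Fatty acids entering an enterocyte are activated to acyl-CoA and then esterified to triglyceride, stored in lipid droplets, exported in chylomicrons or oxidised in mitochondria and peroxisomes. They also act as ligands of the PPAR nuclear receptors, which switch on genes of fatty acid handling such as PLIN2, CPT1A, PDK4 and ANGPTL4. Unsaturated fatty acids are known to hold back SREBP-1, the factor that drives lipogenesis.

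The libraries were checked against the cell type markers first. The markers of intestinal epithelium were present in all 6 libraries. VIL1 (villin) ranged from 408 to 478 TPM, CDH17 from 354 to 428 TPM and EPCAM from 1298 to 1376 TPM, whereas KRT20 stayed between 0.70 and 2.13 TPM and LGALS4 between 1.22 and 11.3 TPM. The summed level of the 10 intestinal markers was 10475 to 11803 TPM in control and 9591 to 13096 TPM with FFAs. The sum of 8 hepatocyte markers, all of them expressed by this line, was 3249 to 5025 TPM in control and 3185 to 4342 TPM with FFAs. The sum of 5 fibroblast markers was 43.6 to 65.3 TPM and 47.5 to 58.5 TPM, and that of 4 leukocyte markers was 41.8 to 49.4 TPM and 35.6 to 42.4 TPM. In bulk RNA, fewer cells of a type and less RNA per cell cannot be told apart. Control libraries listed 21042 to 22637 genes above 0 TPM, and FFAs replicates 1, 2 and 3 listed 20996, 21516 and 23682. FFAs replicate 3 thus had the most genes above 0 TPM of the 6. The counts of list members without overlap are given also without it where they change by more than 1.5 times. Control replicate 3, which had the most of the controls (22637), stayed in those counts.

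No gene differed between FFAs and control at an adjusted p under 0.05 (limma on log2(TPM + 1), Benjamini-Hochberg over 14468 genes). The smallest adjusted p was 0.176, for AL121992.3, a short RNA listed at 0 in all 3 controls and at 2.11, 4.07 and 3.88 TPM with FFAs. An unadjusted p under 0.05 was found for 388 genes, or 2.68% of those tested, where a flat distribution of p would give 723. The study took a p under 0.05 by analysis of variance with a log2 fold change of at least 0.26 between any 2 samples. The same cut-offs, applied here to the limma contrast and so not the same test, were passed by 248 genes that were higher with FFAs (1.71%) and 92 that were lower (0.636%). The higher genes were 72.9% of those calls, but 60.7% after median-of-ratios scaling (205 and 133) and 49.9% after quantile normalization (170 and 171). The size of this imbalance therefore depended on the scaling.

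The distance between libraries, measured as the median absolute difference of log2(TPM + 1), gave the same picture. It was 0.134 to 0.220 between FFAs and control libraries (median 0.191), 0.143 to 0.214 among controls (median 0.194) and 0.177 to 0.249 among FFAs libraries (median 0.186). Most genes moved little. The middle 90% of log2 fold changes lay between −0.27 and 0.37 with a median of 0.03, and 100 genes reached a change of at least 1 in either direction, 50 of them with means under 5 TPM. The median standard error was 0.16, and 0.14 for genes of at least 5 TPM. The 3 FFAs values did not overlap the 3 control values in 755 genes that were higher (5.22%) and 307 that were lower (2.12%). In an exact permutation of 3 against 3 libraries, no overlap in either direction has a probability of 0.10. Without FFAs replicate 3, a choice made after seeing the data that leaves 2 against 3 libraries, 1380 (9.54%) were higher and 1120 (7.74%) lower without overlap. With fewer libraries a lack of overlap is more frequent by itself, so this rise is not read as an effect of that library.

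**Figure D1:**
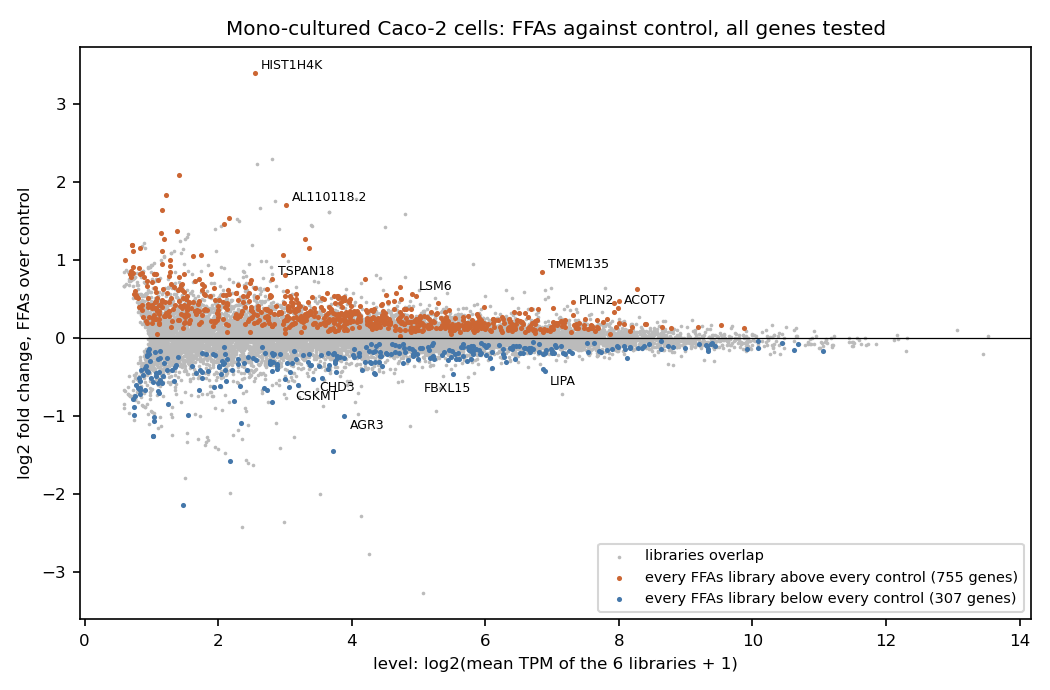
Log2 fold change (FFAs minus control, log2(TPM + 1)) of the 14468 genes tested against the log2 of their mean TPM plus 1 over the 6 mono-culture libraries. Points are genes, and colours mark the 755 higher and 307 lower genes whose FFAs and control libraries did not overlap. The spread narrows as expression increases, and no point passed the adjusted threshold.

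The genes described next are the 12 in each direction with the smallest p among protein-coding genes that reached a mean of 5 TPM in either group, with no overlap and a log2 fold change of at least 0.26, out of 171 higher and 51 lower candidates. Because no overlap was part of that choice, it is a description here and no test. The adjusted p of each was at least 0.50 (limma).

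TSPAN18, a tetraspanin of the plasma membrane, was among the most even of the higher genes. Its values were 4.12, 4.12 and 4.35 TPM in control and 7.78, 7.38 and 8.28 TPM with FFAs. All FFAs libraries were close to 1 level and all controls to another, with a log2 fold change of 0.76 ± 0.16 (SE; unadjusted p = 0.000477). LSM6, a subunit of the Lsm ring that binds U6 snRNA and takes part in mRNA decay, was listed at 24.8, 22.4 and 22.4 TPM and then at 35.3, 32.4 and 36.4 TPM. The change was 0.56 ± 0.11 (unadjusted p = 0.000311), with both groups tight. HIST1H4K, a histone H4 gene, was listed at 0 in each control and at 7.38, 10.2 and 11.6 TPM with FFAs (unadjusted p = 0.000281, adjusted p = 0.50). With only the groups compared in the fit, its adjusted p was 0.00359 (limma). No fold is given against a group at 0, and since H4 genes are near-identical copies, the assignment of reads to this copy is uncertain.

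ACOT7, a cytosolic acyl-CoA thioesterase that splits long-chain acyl-CoA into free fatty acid and CoA, was listed at 227, 224 and 205 TPM in control. With FFAs it was at 311, 261 and 289.7 TPM, so that the lowest FFAs library stood above the highest control. The change was 0.39 ± 0.08 (unadjusted p = 0.00059, adjusted p = 0.712), at a higher expression level than that of any other gene among the 24. TMEM135, a membrane protein linked to mitochondria and peroxisomes, was at 70.5, 79.3 and 91.1 TPM and then at 164, 111 and 166 TPM. FFAs replicate 2 was nearer to the controls than the other two, and the change was 0.85 ± 0.22 (unadjusted p = 0.00276). PRSS35, a serine protease-like protein, was at 58.0, 51.8 and 49.7 TPM in control and 72.0, 64.5 and 75.7 TPM with FFAs, a change of 0.41.

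The other higher genes had diverse roles. MLH3, a DNA mismatch repair protein, was at 8.61, 10.7 and 7.57 TPM in control and 12.5, 13.5 and 15.5 TPM with FFAs. HS6ST1, which sulfates heparan sulfate, was at 9.83, 10.6 and 12.3 TPM and then at 18.4, 13.6 and 16.4 TPM. TTC12, a factor for assembly of ciliary dynein arms, was at 4.13, 7.06 and 3.63 TPM and then at 8.59, 9.62 and 9.06 TPM. In each of these the FFAs libraries lay above all controls, with changes of 0.58, 0.52 and 0.81. KIAA1586 was higher by 0.52 on the same scale, from 8.57, 7.95 and 9.39 TPM to 12.2, 11.9 and 14.5 TPM. AL110118.2 was at 1.39, 2.64 and 4.70 TPM and then at 14.6, 10.3 and 8.85 TPM, but its exons overlap those of LYSET and UBR7 on the same strand, so its reads may be shared with them. The entry GGT1 (ENSG00000286070) spans both GGT1 and SNRPD3 and was at 76.3, 85.3 and 77.5 TPM and then at 96.0, 101 and 104 TPM, whereas the ordinary GGT1 entry (ENSG00000100031), a glutathione-degrading enzyme, had a change of −0.01 (unadjusted p = 0.983).

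Among the lower genes, LIPA encodes lysosomal acid lipase, which hydrolyses cholesteryl esters and triglycerides in lysosomes. It was at 117, 156 and 123 TPM in control and at 97.4, 109.6 and 92.5 TPM with FFAs. All FFAs libraries were below all controls, with a change of −0.39 ± 0.12 (unadjusted p = 0.00834). AGR3, a secreted protein disulfide isomerase of mucosal epithelia, was at 24.3, 16.1 and 15.3 TPM and then at 6.08, 8.69 and 11.8 TPM. Its change of −1.0 ± 0.32 (unadjusted p = 0.00868) was the largest of the 12 lower genes, although control replicate 1 was well above the other controls. FBXL15, a substrate receptor of a ubiquitin ligase, was at 54.3, 48.5 and 52.9 TPM and then at 39.5, 33.8 and 39.8 TPM, a change of −0.45 ± 0.11 (unadjusted p = 0.00179). Its exons overlap PSD on the opposite strand, and the cDNA kit that the methods give for Illumina sequencing does not mark strand. The same holds for LIPA with IFIT2 and IFIT3, and among the other leading genes for TSPAN18 with TP53I11, CARD8 with ZSWIM9, RFXANK with NR2C2AP and BORCS8, CSKMT with LBHD1 and ACTR6 with DEPDC4. TTC12 shares exon sequence with a long noncoding RNA on its own strand, and ACOT7, PCGF1, CARD8 and LIPA with one on the opposite strand.

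CHD3, a chromatin remodeller of the NuRD complex, was at 10.9, 13 and 10.8 TPM in control and 6.92, 7.84 and 8.52 TPM with FFAs, a change of −0.52 ± 0.13 (unadjusted p = 0.00231). PCGF1, a Polycomb subunit, was at 25.0, 22 and 23.7 TPM and then at 18.6, 16.5 and 19.5 TPM. CARD8, an inflammasome sensor, was at 10.9, 12 and 15.9 TPM and then at 8.22, 8.12 and 9.68 TPM. The groups of these 3 genes did not overlap. CSKMT, a mitochondrial citrate synthase methyltransferase, went from 8.10, 12.3 and 7.29 TPM to 5.99, 5.21 and 5.26 TPM. PHTF1 went from 18.0, 25.2 and 24.6 TPM to 15, 17.9 and 15.4 TPM. The log2 fold changes of the remaining 4 were −0.43 for TRMT10A, a tRNA methyltransferase, −0.31 for RFXANK, a regulator of MHC class II genes, −0.27 for ACTR6, a chromatin remodelling subunit, and −0.27 for GTF2H2C, which has near-identical paralogs.

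**Figure D2:**
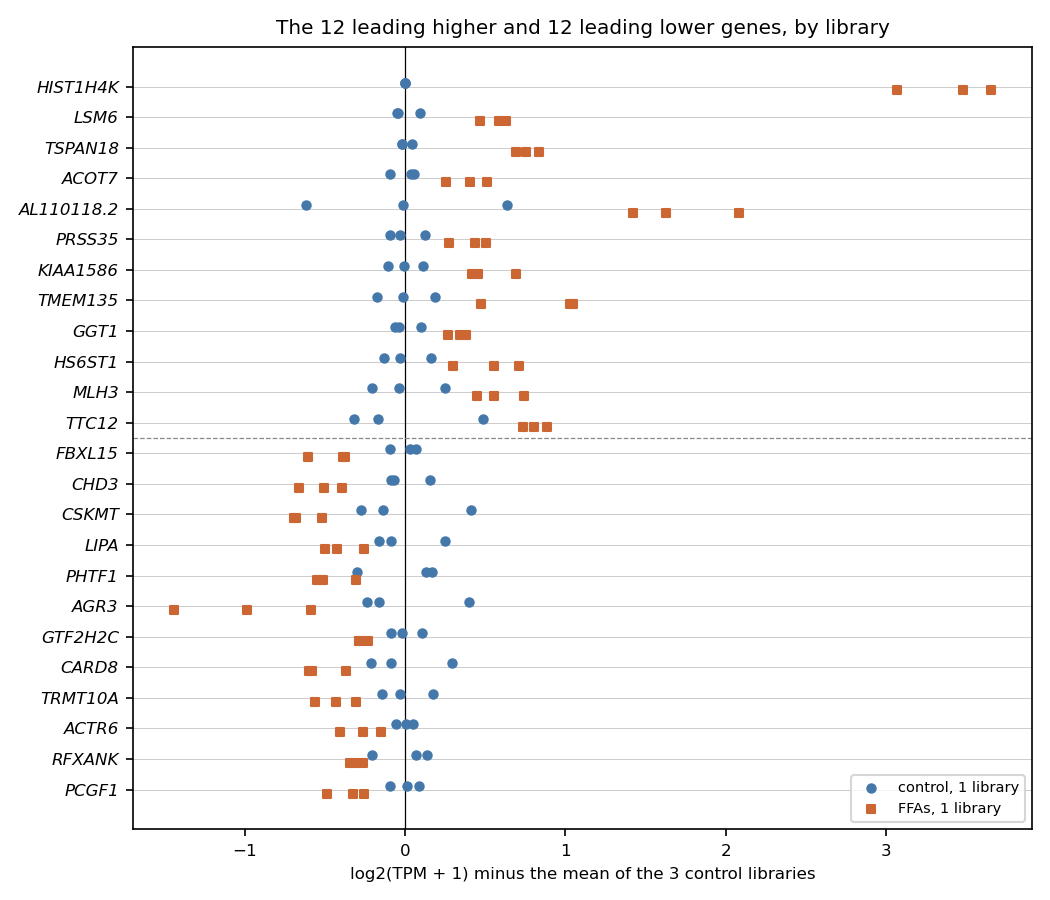
Log2(TPM + 1) of each mono-culture library minus the control mean, for the 12 leading higher and 12 leading lower genes. Each point is 1 library, and the zero line is the mean of the 3 controls. FFAs points lie to 1 side of the control points for every gene because this was part of the choice of genes, and the height of HIST1H4K, listed at 0 in controls, depends on the pseudocount of 1.

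Genes known to respond to fatty acids were examined one by one. PLIN2, which coats lipid droplets, was at 119, 135 and 137 TPM in control and 140.1, 165 and 252 TPM with FFAs. The groups did not overlap, but FFAs replicate 1 was barely above the highest control and FFAs replicate 3 was well above the other two. The change was 0.47 ± 0.17 (SE; unadjusted p = 0.0192), and 0.23 without FFAs replicate 3. CPT1A, which commits long-chain fatty acids to mitochondrial oxidation, was at 4.71, 5.87 and 5.97 TPM and then at 9.10, 8.34 and 8.01 TPM. Here the 3 FFAs libraries were tight and clear of the controls, with a change of 0.55 ± 0.20 (unadjusted p = 0.0203) that stayed between 0.45 and 0.60 when single libraries were left out. PDK4, which restrains pyruvate oxidation, was at 0.750, 0.900 and 0.760 TPM and then at 0.820, 1.18 and 3.56 TPM. Its groups overlapped and only FFAs replicate 3 was far above the controls (0.54 ± 0.33, unadjusted p = 0.129, and 0.14 without it).

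ANGPTL4 did not separate the groups. This secreted inhibitor of lipoprotein lipase was at 0.790, 1.12 and 1.90 TPM in control and 1.60, 1.66 and 1.14 TPM with FFAs. Its values lay in the same range in both groups, and the change of 0.14 turned below 0 when control replicate 1 was left out.

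**Figure D3:**
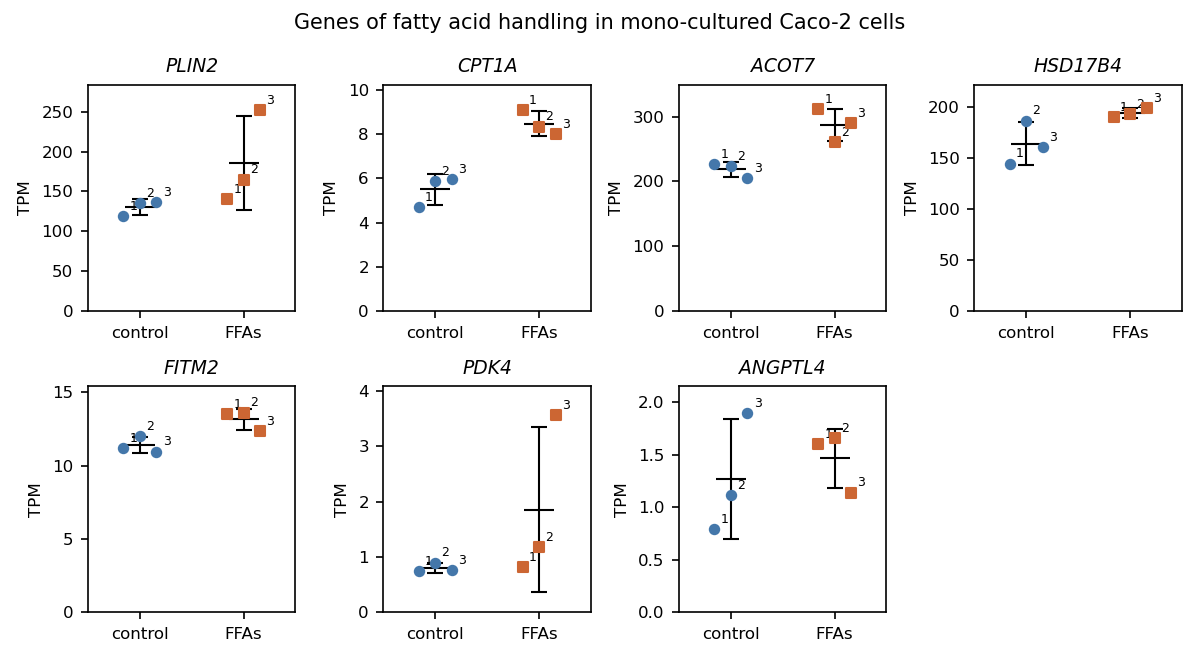
TPM of PLIN2, CPT1A, ACOT7, HSD17B4, FITM2, PDK4 and ANGPTL4 in each mono-culture library, with replicate numbers at the points and the mean ± SD (n = 3) of each group. PLIN2, CPT1A, ACOT7, HSD17B4 and FITM2 show FFAs libraries above all controls, whereas PDK4 and ANGPTL4 overlap.

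PPAR receptors bind, with RXR, to a direct repeat of the half-site AGGTCA, so the promoters of the 3 fatty acid genes with the smallest p in this contrast are printed (RefSeq, GRCh38.p14, 250 bases before the start, all 3 on the minus strand). Capitals mark the half-site on either strand. The window of ACOT7 (chr1:6393768-6394017, the first of 4 listed starts) held 1 copy, on the opposite strand as TGACCT, 72 bases before the start. The windows of PLIN2 (chr9:19127493-19127742) and CPT1A (chr11:68844278-68844527) held none, which says only that these letters are not in these windows.
ACOT7: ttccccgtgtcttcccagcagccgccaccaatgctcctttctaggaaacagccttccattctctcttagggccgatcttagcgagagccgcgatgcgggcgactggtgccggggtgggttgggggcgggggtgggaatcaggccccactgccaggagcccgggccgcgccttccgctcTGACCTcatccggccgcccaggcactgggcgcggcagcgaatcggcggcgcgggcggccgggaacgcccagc
PLIN2: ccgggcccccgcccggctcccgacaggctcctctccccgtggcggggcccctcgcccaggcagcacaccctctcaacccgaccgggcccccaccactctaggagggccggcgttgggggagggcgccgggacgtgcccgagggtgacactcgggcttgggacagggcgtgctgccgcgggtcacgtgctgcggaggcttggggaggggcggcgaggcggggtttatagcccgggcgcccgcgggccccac
CPT1A: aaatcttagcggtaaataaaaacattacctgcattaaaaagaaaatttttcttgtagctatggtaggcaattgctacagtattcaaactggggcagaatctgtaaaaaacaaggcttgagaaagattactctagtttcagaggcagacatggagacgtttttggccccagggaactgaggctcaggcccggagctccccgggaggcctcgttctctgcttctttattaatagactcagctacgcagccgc
The half-site was present in 12% of 34788 promoters, and the full direct repeat, with 1 base between both copies, in 4 promoters (0.0115%). Of 27 genes of the fatty acid oxidation list with a promoter in the table, 4 (ACOT7, CREB3L3, FABP1 and PPARG) held the half-site, or 14.8%, beside 14.6% of all 27305 genes.

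The wider pathways were described with lists, each beside the same counts over all genes tested (5.22% higher and 2.12% lower without overlap, 59.2% with a log2 fold change above 0 and 40.8% below). In none of the 28 lists did a member pass the adjusted threshold (limma, over all genes), and in none did the mean level of the list separate the 3 FFAs libraries from the 3 controls. The sign of the median turned in 16 of the lists when 1 or another single library was left out. It was kept in the other 12, which were G1/S, Wnt, chylomicron, ribosomal, unfolded protein response, fatty acid uptake, histone, immediate-early, integrated stress response, lipid droplet, mucin and p53 genes. Counts without overlap that leave out FFAs replicate 3 compare 2 with 3 libraries and stand beside 9.54% higher and 7.74% lower of all genes. Of 34 genes of fatty acid oxidation and PPAR targets, 4 were higher without overlap (ACOT7, PLIN2, CPT1A and HSD17B4) and 1 was lower (PPARG). HSD17B4, the bifunctional enzyme of peroxisomal beta-oxidation, was at 144, 186 and 161 TPM in control and 189.6, 192 and 199 TPM with FFAs (0.25 ± 0.16). PPARG, the receptor itself, was at 37.9, 41.7 and 38.4 TPM and then at 30.9, 35.4 and 33.7 TPM (−0.23 ± 0.09, unadjusted p = 0.032). The list as a whole was split, with 20 members above 0 and 14 below and a median of 0.01, against 16 and 18 and −0.02 after median-of-ratios scaling.

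Lipid droplet and triglyceride genes numbered 27, of which 16 were above 0 (median 0.06). PLIN2 and FITM2 were higher without overlap and MGLL, which hydrolyses monoacylglycerol, was lower. FITM2, needed for budding of droplets from the endoplasmic reticulum, was at 11.2, 12 and 10.9 TPM in control and 13.5, 13.6 and 12.3 TPM with FFAs. GPAT3, an acyltransferase of triglyceride synthesis, was at 12.1, 8.59 and 13 TPM and then at 11.9, 16.1 and 17.0 TPM, and its groups overlapped (0.39, unadjusted p = 0.0478). Of 17 genes of fatty acid uptake and activation, the fatty acid transporters SLC27A3 (51.9, 49.0 and 45.4 TPM against 40.8, 44.1 and 42.2 TPM) and SLC27A1 (5.63, 5.37 and 4.75 TPM against 3.86, 4.22 and 4.62 TPM) were lower without overlap and none was higher (median 0.02), against 2 lower and 1 higher without FFAs replicate 3. The smallest p of this list was that of ACSL3, an acyl-CoA synthetase of lipid droplets (−0.19, unadjusted p = 0.0556).

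No member of the lipogenesis, cholesterol or chylomicron lists was without overlap. Without FFAs replicate 3, 1 lipogenesis gene was higher and 1 lower, and 3 cholesterol and 3 chylomicron genes were lower. SREBF1, which encodes SREBP-1, was at 82.9, 81.7 and 64.5 TPM in control and 47.1, 64.6 and 62.3 TPM with FFAs. FFAs replicate 2 was at the level of control replicate 3, and the change was −0.39 ± 0.14 (unadjusted p = 0.0158). SCD, the stearoyl-CoA desaturase, was at 892, 881 and 522 TPM and then at 565, 705 and 553 TPM, with control replicate 3 again the low control. The medians were −0.05 over 20 lipogenesis genes (13 below 0), −0.07 over 27 cholesterol genes (20 below 0) and −0.06 over 19 chylomicron and lipoprotein genes (14 below 0). The sterol transporter NPC1L1 had the smallest p of the cholesterol list (−0.25, unadjusted p = 0.188), and the phospholipid transfer protein PLTP that of the chylomicron list (−0.14, unadjusted p = 0.32). The medians turned with single controls. That of lipogenesis was −0.15 without control replicate 3, 0.02 without control replicate 1 (13 above 0) and 0.0042 without control replicate 2 (11 above 0), and that of cholesterol genes was −0.20 without control replicate 3 and 0.00073 without control replicate 2 (14 above 0).

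Genes of the G1/S transition and DNA replication leaned to 1 side. Of 30 members, 29 had a log2 fold change above 0 (median 0.13), 28 did so under both other scalings, and 24 did so without FFAs replicate 1 or without control replicate 3. CCNE2, a cyclin of S-phase entry, was at 5.59, 5.71 and 7.47 TPM in control and 7.79, 7.66 and 9.34 TPM with FFAs (0.36 ± 0.16, unadjusted p = 0.0453). SLBP, the histone mRNA binding protein, was at 158, 159.7 and 148 TPM and then at 179.6, 163 and 168 TPM. These 2 were the only members without overlap among the 3 against 3 libraries, and without FFAs replicate 3 the number was 16 of 30, beside 9.54% of all genes. CCND1, the G1 cyclin, was at 291, 252 and 311 TPM and then at 358, 286 and 393 TPM (0.27, unadjusted p = 0.0439), and POLE, the leading-strand polymerase, at 21.1, 23.7 and 19.6 TPM and then 23.2, 28.8 and 27.1 TPM (0.28, unadjusted p = 0.047). The groups of both overlapped. The mean level of the list was 6.08, 6.08 and 5.89 on the log2 scale in control and 6.33, 6.17 and 6.01 with FFAs. FFAs replicate 3 lay among the controls.

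E2F factors drive many of these genes, and the promoter of MCM6, a subunit of the replicative helicase, is shown because it holds the E2F-type letters at 2 places. Its window is chr2:135876444-135876693 on the minus strand (RefSeq, GRCh38.p14, 250 bases before the start). The letters searched were TTTCGCGC and TTTGGCGC on both strands, and capitals mark the matched stretches. In both stretches the 2 words overlap, 1 on each strand.
MCM6: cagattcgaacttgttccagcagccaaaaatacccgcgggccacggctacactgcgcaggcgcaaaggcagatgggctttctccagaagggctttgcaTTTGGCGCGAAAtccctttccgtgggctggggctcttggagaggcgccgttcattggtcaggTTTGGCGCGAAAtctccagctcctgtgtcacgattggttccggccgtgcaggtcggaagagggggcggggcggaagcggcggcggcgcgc
Either word was present in 0.957% of 34788 promoters. It was in 7 of 25 list genes with a promoter in the table (28.0%), namely E2F1, E2F2, MCM6, MCM7, POLA1, POLE and UHRF1, and in 1.2% of all 27305 genes. Since E2F drives many genes of this list, that share describes the list and not a response to FFAs. MCM6 itself was at 61.7, 67.8 and 50.5 TPM in control and 76.8, 67.1 and 55.9 TPM with FFAs (0.15 ± 0.15, unadjusted p = 0.335), with overlapping groups.

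Mitotic genes did not lean the same way. Of 30 members, 22 were below 0 (median −0.03) and none was without overlap, but without FFAs replicate 3 it was 22 above 0 and 8 below, with 2 higher without overlap. TTK, a spindle checkpoint kinase, was at 53.6, 44.8 and 54.8 TPM in control and 45.5, 41.2 and 34.1 TPM with FFAs (−0.34, unadjusted p = 0.0225). Histone genes were above 0 in 46 of 57 (median 0.26, and 0.06 with 36 of 55 above 0 without FFAs replicate 1). The genes HIST1H4K, HIST1H2BC, HIST1H2AE, HIST1H2AG, HIST1H4H and HIST2H4A (6 in all) were higher without overlap and H3F3A, a replication-independent histone, was lower, against 10 higher and 3 lower without FFAs replicate 3. HIST1H2BC was at 12.7, 12.1 and 8.71 TPM in control and 16.8, 16.9 and 15.2 TPM with FFAs (0.52 ± 0.16, unadjusted p = 0.00598). Its FFAs libraries were tight and above all controls. HIST1H2AE, in contrast, was at 2.48, 3.37 and 3.16 TPM and then at 10.5, 4.37 and 3.82 TPM, where only FFAs replicate 1 was far above. Most histone mRNAs lack a poly(A) tail and the labels give poly(A) RNA as the molecule measured, so these levels may describe only part of them, and near-identical copies may share reads.

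Immediate-early genes, which respond within minutes to growth factors and stress, were above 0 in 29 of 30 (median 0.27). Libraries differed more than groups. The mean log2 level was 4.86, 4.99 and 5.32 in control and 5.41, 4.99 and 5.57 with FFAs, where FFAs replicate 2 was at the level of control replicate 2. MYC was at 129, 119.8 and 107 TPM and then at 172, 128 and 142 TPM (0.31, unadjusted p = 0.0633), EGR1 was at 114, 127 and 132 TPM and then at 198, 129 and 166 TPM, and FOS was at 195, 203 and 124 TPM and then at 517, 172 and 155 TPM. FFAs replicate 1 was the highest library for all 3 genes. ATF3, a stress-induced repressor, was the only member without overlap, at 10.2, 12.7 and 12.8 TPM in control and 14.2, 14.1 and 16.9 TPM with FFAs. When FFAs replicate 3 was left out, 2 members were lower without overlap and 1 higher. The number above 0 was 20 without FFAs replicate 3, 22 without control replicate 1, and 26 and 25 under median-of-ratios and quantile scaling.

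Targets of the integrated stress response, through which ATF4 answers amino acid shortage and endoplasmic reticulum stress, were above 0 in 22 of 26 (median 0.09). DDIT3, which encodes CHOP, was at 109, 122 and 99.95 TPM in control and 163, 144 and 128 TPM with FFAs (0.39 ± 0.17, unadjusted p = 0.0476). With ATF3 it made 2 members higher without overlap, and none was lower, against 6 and none without FFAs replicate 3. DDIT3 shares exons with MARS1 and MBD6 on the opposite strand, and with the protein-coding entry ENSG00000285133 on its own strand. ASNS, the asparagine synthetase, was at 103, 109.7 and 333 TPM and then at 136, 200.3 and 266 TPM. Control replicate 3 stood far above the other controls, and without control replicate 1 or 2 the list was split 14 above 0 and 12 below. Chaperones and sensors of the unfolded protein response were split 10 above 0 and 12 below (median −0.02), with the sensor ATF6 alone higher without overlap, at 7.81, 7.30 and 7.07 TPM in control and 8.94, 8.65 and 9.19 TPM with FFAs. Without FFAs replicate 3, 2 further members were lower without overlap.

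Other stress lists gave little. NRF2 targets were split 13 above 0 and 12 below with no member without overlap, against 2 higher and 1 lower without FFAs replicate 3. Of 20 heat shock genes 12 were below 0 and DNAJB1 alone was lower without overlap (2 without FFAs replicate 3). Of 28 p53 targets and apoptosis genes 18 were above 0. In that list 1 was higher without overlap and none lower, against 3 higher and 1 lower without FFAs replicate 3. Of 15 metallothionein, copper and zinc genes, CCS, the copper chaperone of superoxide dismutase, and SLC31A2 were lower without overlap, and 1 member was higher without FFAs replicate 3. Among 20 NF-kB targets, 12 were below 0. Without overlap 2 were higher and 1 was lower, against 2 higher and 2 lower without FFAs replicate 3. The chemokine CXCL2 was at 4.39, 3.68 and 4.44 TPM in control and 23.6, 4.91 and 12.3 TPM with FFAs. FFAs replicate 2 was close to the controls and the SE of 0.73 exceeded that of most genes (change 1.27, unadjusted p = 0.108). That SE pools all Caco-2 libraries, among them a co-culture FFAs library at 64.5 TPM. CCL20, a further chemokine, was at 3.58, 4.41 and 3.69 TPM and then at 7.08, 4.52 and 4.49 TPM, and TNIP1, an inhibitor of NF-kB, was lower at 42.2, 38.7 and 35.4 TPM and then 33.2, 33.2 and 31.1 TPM (−0.24, unadjusted p = 0.043).

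Genes of epithelial identity showed no member with an adjusted p under the threshold. Of 25 brush border and differentiation genes, 16 were above 0 (median 0.06) and none was without overlap. USH1C, a scaffold of microvilli, had the smallest p, at 83.6, 77.0 and 61.3 TPM in control and 83.0, 85.0 and 86.7 TPM with FFAs. Of 20 tight junction genes, CRB3, a polarity protein, alone was lower without overlap, at 57.3, 58.2 and 62.1 TPM and then 48.2, 54.5 and 51.8 TPM, against 3 lower genes without FFAs replicate 3. Mucins and trefoil factors were below 0 in 6 of 7 (median −0.25), and in 6 or 7 of 7 under the alternatives that kept these 7 genes. With no filter on low values it was 12 of 17 with a median of −0.04, and with means of at least 5 TPM it was 5 of 6. TFF1, a secreted mucosal peptide, was at 75.5, 60.9 and 56.1 TPM and then at 39.5, 64.4 and 39.5 TPM, and AGR2, needed for mucin folding, was at 543, 550.2 and 402 TPM and then at 406, 470.0 and 311 TPM. The groups of both overlapped, and no mucin or trefoil factor was without overlap, against 2 lower without FFAs replicate 3.

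Wnt targets were above 0 in 14 of 17 (median 0.17), and in 12 to 15 of 17 under the alternatives that kept these 17 genes. It was 14 of 19 with no filter on low values and 14 of 16 with means of at least 5 TPM. ASCL2, a stem cell factor of the crypt, was at 31.5, 22.4 and 25.2 TPM in control and 34.5, 28.0 and 47.2 TPM with FFAs (0.44 ± 0.18, unadjusted p = 0.0334). LGR5, the crypt stem cell receptor, was at 15.3, 14.5 and 8.74 TPM and then at 19.0, 14.6 and 14.6 TPM. The groups of both overlapped, as did those of every other Wnt target, and 1 was higher without overlap when FFAs replicate 3 was left out. Secreted proteins of hepatocytes, many of which Caco-2 expresses, were below 0 in 15 of 22 (median −0.12). Without control replicate 1 the split was 12 above 0 and 10 below (median 0.02), and without FFAs replicate 1 it was 10 and 11. ITIH1 alone was lower without overlap, at 3.07, 3.18 and 2.73 TPM and then 1.09, 1.66 and 1.88 TPM, and 1 member was higher without FFAs replicate 3. No gluconeogenesis gene (10 of 14 above 0) and no bile acid or xenobiotic gene (8 of 13 below 0) was without overlap. Without FFAs replicate 3, 1 of the former was higher and 1 lower, and 1 of the latter lower. The widest of the latter was CYP1A1, a target of the aryl hydrocarbon receptor, at 47.1, 100.4 and 112 TPM and then 82.3, 83.1 and 280.3 TPM. Of 31 glycolysis and hypoxia genes, 16 were below 0 and BNIP3L, a mitophagy receptor, alone was lower without overlap, at 50.6, 52.3 and 58.8 TPM and then 42.6, 47.5 and 46.7 TPM (unadjusted p = 0.0423). Without FFAs replicate 3, 4 of these genes were higher and 3 lower without overlap.

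Cytosolic ribosomal protein genes were below 0 in 74 of 80, by small amounts (median −0.07, lowest −0.15). Without overlap, 7 were lower (8.75% of the list) and none was higher, against 19 lower and none higher without FFAs replicate 3. RPLP0, of the ribosomal stalk, was at 1599, 1585 and 1767 TPM in control and 1406, 1570.3 and 1499 TPM with FFAs (−0.15 ± 0.08, unadjusted p = 0.109). RPS28 was at 714, 696 and 743 TPM and then at 659.8, 665 and 682 TPM. Control replicate 3 was the highest library for both, and without it the list was split 36 above 0 and 44 below. The number below 0 was 66 after quantile normalization. Of 78 nuclear-encoded subunits of the respiratory chain, 49 were below 0 (median −0.03), with COX6A1 and UQCRC1 lower without overlap and none higher, against 7 in each direction without FFAs replicate 3. COX6A1 was at 2178, 2306 and 2259.9 TPM and then at 2098, 2111 and 1833 TPM. Its exons overlap those of the protein-coding entry ENSG00000111780 on the same strand.

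Zinc-finger ZNF genes, mostly transcriptional repressors of low expression, were above 0 in 256 of 380 (median 0.06). Without overlap, 19 were higher (5.00%) and 3 were lower (0.79%), beside 5.22% and 2.12% of all genes. ZNF552 was at 9.14, 9.84 and 12.4 TPM in control and 15.4, 14.3 and 16 TPM with FFAs (0.51 ± 0.15, unadjusted p = 0.00613), and ZNF493 was at 1.27, 2.27 and 1.22 TPM and then at 3.57, 2.47 and 3.43 TPM. ZNF493 shares exons with the protein-coding entry ENSG00000269237 on its own strand. Without FFAs replicate 3, the library with the most genes above 0 TPM, the list was split 183 above 0 and 196 below, and 24 genes were higher and 36 lower without overlap, so that the balance turned. The part of that library in the imbalance was not tested further.

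**Figure D4:**
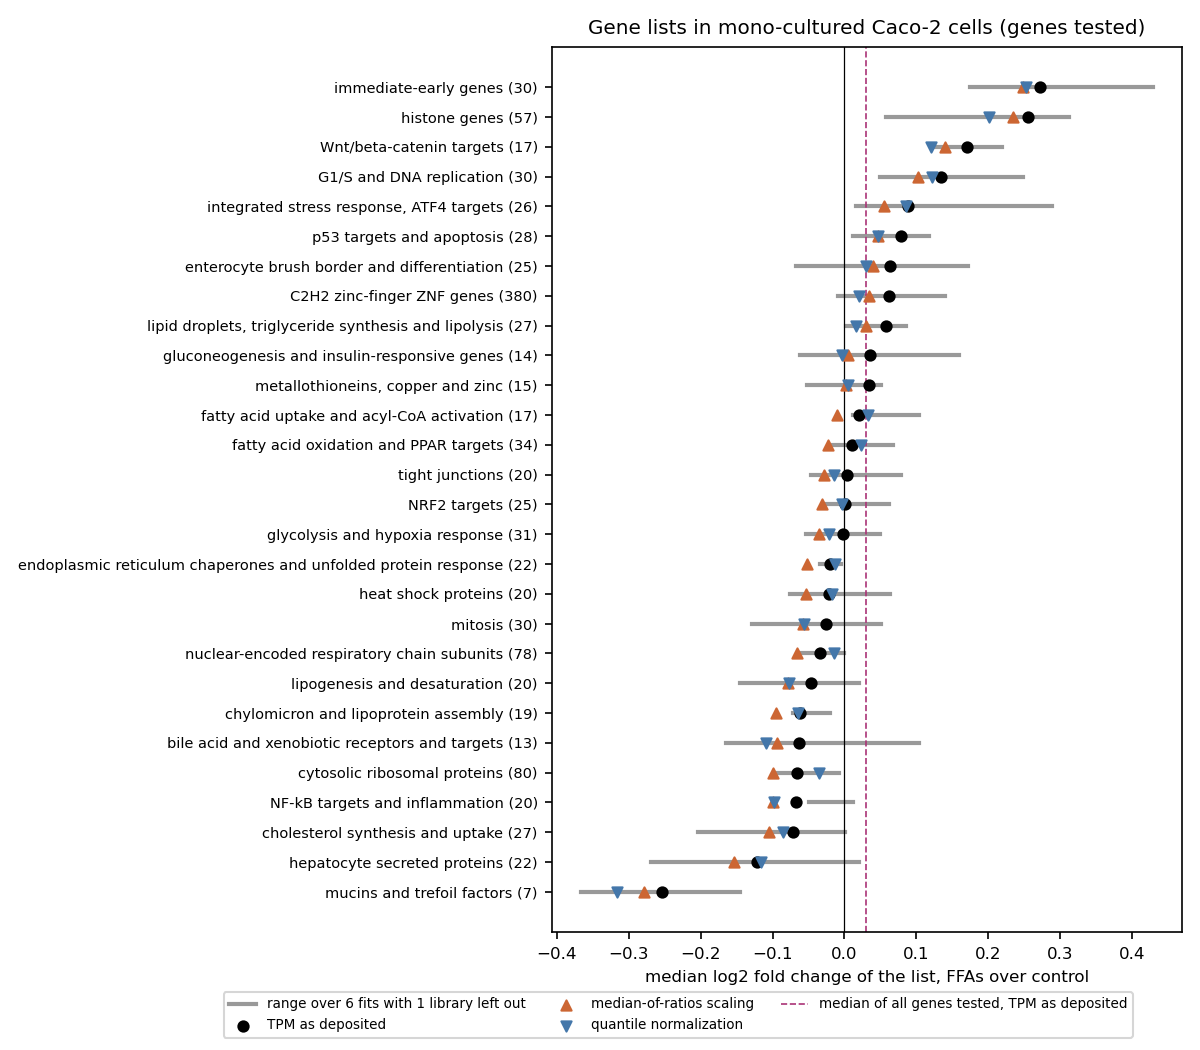
Median log2 fold change (FFAs minus control) of each of the 28 lists as deposited, after median-of-ratios scaling and after quantile normalization, with lines spanning the medians when single libraries were left out and a dashed line at the median of all genes (0.03). Immediate-early (0.27) and histone genes (0.26) have the highest medians as deposited and mucins and trefoil factors (−0.25) the lowest, and the lines of several lists reach to both sides of 0.

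The same contrast in co-cultured Caco-2 and in mono-cultured HepG2 was set beside these values. No gene differed between mono-culture and co-culture in its response to FFAs at an adjusted p under 0.05 (limma interaction, smallest 0.783, for COLCA1), and 259 genes (1.79%) had an unadjusted p under 0.05. Likewise no gene differed between Caco-2 and HepG2 in mono-culture (smallest adjusted p 1), and 348 genes (2.41%) had an unadjusted p under 0.05. The following differences are therefore values with unadjusted p.

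PLIN2 and CPT1A had log2 fold changes in Caco-2 co-culture of 0.53 and 0.66, and their mono-culture minus co-culture differences were −0.06 (95% interval −0.63 to 0.50) and −0.11 (−0.78 to 0.55). PLIN2 in co-culture was at 155 and 175 TPM in control and 223, 239 and 254 TPM with FFAs, above the mono-culture levels in both groups except FFAs replicate 3. CPT1A in co-culture was at 4.24 and 7.48 TPM and then at 11.5, 9.79 and 7.61 TPM. In HepG2 the changes were 0.30 for PLIN2 and −0.02 for CPT1A, and the Caco-2 minus HepG2 difference for CPT1A was 0.57 (−0.04 to 1.17, unadjusted p = 0.0658). These intervals admit differences as large as the changes themselves. PDK4 in co-culture was at 0.510 and 0.730 TPM and then at 2.38, 5.14 and 3.49 TPM, without overlap, where in mono-culture only replicate 3 was that high (difference −0.95, −2.04 to 0.15, unadjusted p = 0.0831).

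ACOT7 and TSPAN18 were higher without overlap in co-culture too. ACOT7 was at 229 and 247 TPM in control and 269, 287 and 272 TPM with FFAs, and TSPAN18 was at 3.80 and 5.63 TPM and then at 8.04, 7.60 and 6.62 TPM. In HepG2 ACOT7 overlapped, at 123, 114 and 109 TPM and then 130.2, 116 and 105 TPM (Caco-2 minus HepG2 difference 0.37, 0.10 to 0.64, unadjusted p = 0.0109), and TSPAN18 was at 0.29 TPM or below in all 6 libraries, too low for a change to be measured. PRSS35, HS6ST1, FBXL15, PHTF1, CHD3 and TRMT10A were also without overlap in co-culture in the direction of mono-culture. With only 2 controls there, 8.25% of all genes were higher and 8.67% lower without overlap.

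Several leading genes of mono-culture had a smaller or opposite change in co-culture. The mono-culture minus co-culture difference was 0.43 for LSM6 (unadjusted p = 0.0248), 0.47 for KIAA1586 (unadjusted p = 0.0381), 0.45 for the GGT1 and SNRPD3 entry (unadjusted p = 0.00513), 0.83 for TTC12 (unadjusted p = 0.0261) and −0.53 for PCGF1 (unadjusted p = 0.0195). That of AL110118.2 was 1.42 (limma interaction, unadjusted p = 0.0365). These genes were chosen for their change in mono-culture, which by itself favours such a difference. HIST1H4K in co-culture was at 6.10 and 3.79 TPM in control and at 0, 0 and 7.83 TPM with FFAs, so it was not higher there. KIAA1586 in co-culture control, at 11.5 and 12.5 TPM, was already at the level of mono-culture with FFAs. DDIT3 was at 142 and 161 TPM and then at 95.3, 168 and 133 TPM in co-culture (difference 0.62, unadjusted p = 0.0368).

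SREBF1 had changes of −0.39 in mono-cultured Caco-2, −0.65 in co-culture, where FFAs and control did not overlap, and −0.31 in HepG2. The medians of the G1/S list were 0.13, 0.09 and 0.34 in the same order, and those of the mitosis list −0.03, −0.12 and 0.20. The mean levels of FFAs and control libraries overlapped for both lists in every culture.

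**Figure D5:**
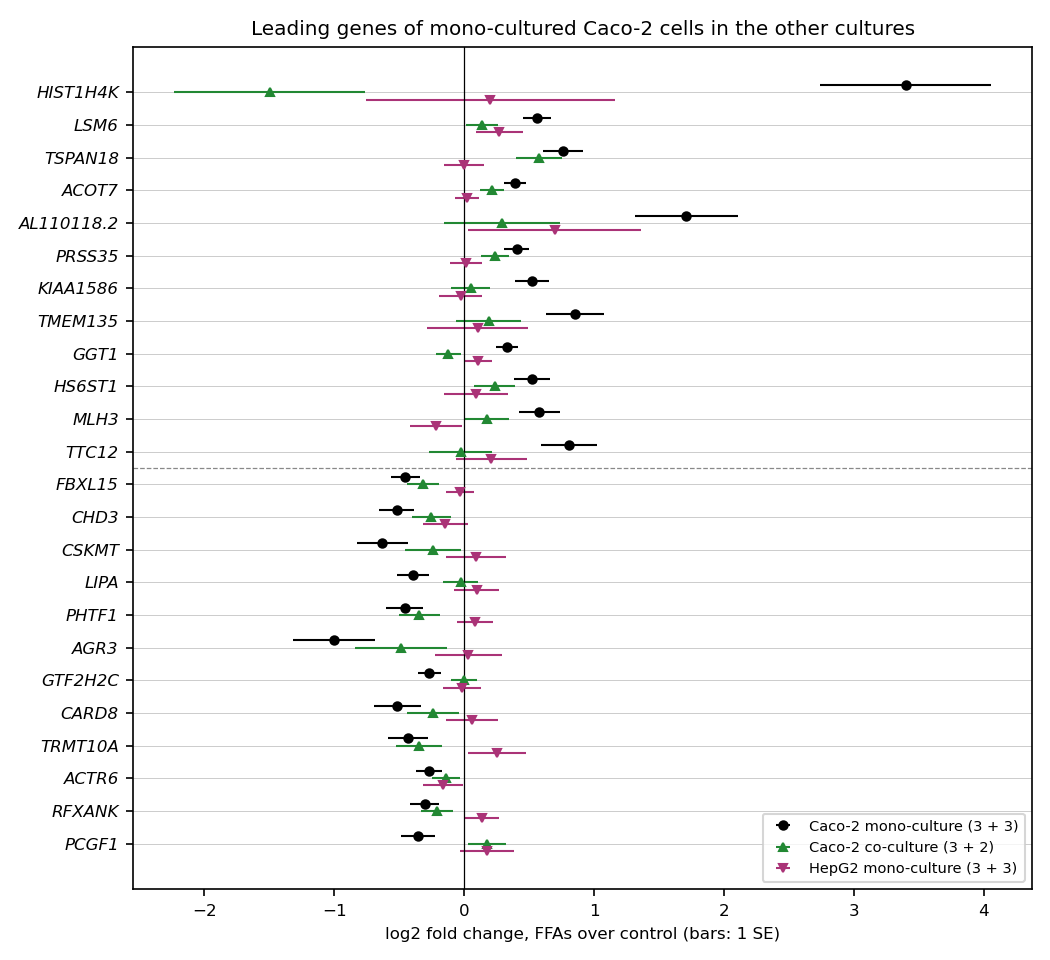
Log2 fold change (FFAs minus control) ± 1 SE of the leading genes in mono-cultured Caco-2, co-cultured Caco-2 and mono-cultured HepG2. The genes were chosen in mono-cultured Caco-2, where TSPAN18 is at 0.76 and ACOT7 at 0.39, and the co-culture values are 0.57 and 0.21 and the HepG2 values 0.00 and 0.02. TSPAN18, PRSS35 and AGR3 were at 0.29 TPM or below in every mono-cultured HepG2 library, too low for a change to be measured. The position of HIST1H4K depends on the pseudocount of 1, since its controls were listed at 0.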

How the data were processed

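The authors deposited 1 table of TPM per library for 60564 genes. Per the submitters' processing notes and the methods, reads of rRNA, tRNA and the mitochondrial genome were removed with Bowtie2 2.1.0, STAR 2.7.1a aligned what remained to GRCh38 (Ensembl 98), and RSEM 1.3.0 gave the TPM. The labels give poly(A) RNA as the molecule. For Illumina sequencing the methods describe cDNA made from total RNA with SMART-Seq v4, which does not mark strand. The methods also describe a Nanopore route and do not say which route served which libraries. TPM carry no counts. The depth of a library is therefore unknown, and counting error cannot be stated. Removal of mitochondrial reads raises the TPM of all other genes.

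Groups came from the sample labels. log2(TPM + 1) was fitted with limma 3.58.1 (R 4.3.3, eBayes with a trend, two-sided) over all 11 Caco-2 libraries in 1 fit of 4 groups, for genes whose mean reached 1 TPM in 1 or both mono-culture groups, with Benjamini-Hochberg adjustment at 0.05. Unadjusted p-values are those of limma, which shares its spread over genes and all groups in the fit. An exact two-sided permutation test of 3 against 3 libraries cannot go below p = 0.10, so none was run for single genes. Fold changes are on the log2(TPM + 1) scale, which understates changes of low genes. The interaction with HepG2 used all 23 libraries. No overlap means that all 3 FFAs values lie on 1 side of all 3 control values. The leading genes were the 12 with the smallest p per direction among protein-coding genes whose mean reached 5 TPM, with no overlap and a log2 fold change of at least 0.26. Also named were members of each list without overlap and past that fold, or else the member with the smallest p, and 4 genes known to respond to fatty acids. A few other items are not reported here. Other list members were named as examples after their values were seen. The genes and lists were chosen with earlier results of these data known. The fit was tested on simulated data, and 15 alternatives were tried. Coordinates and gene types come from GENCODE 44 (60295 of 60564 IDs matched), and promoters from RefSeq.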

Additional observations from a re-analysis of the deposited data

Results flagged for a closer look

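MGLL, which hydrolyses monoacylglycerol, had opposite changes in the 2 cultures of Caco-2, without overlap in either. In mono-culture it was at 3.73, 3.18 and 3.71 TPM in control and 2.81, 2.89 and 1.94 TPM with FFAs, a log2 fold change of −0.37. In co-culture it was at 1.29 and 1.71 TPM in control and 2.71, 5.55 and 2.09 TPM with FFAs, a change of 0.76. The difference between cultures was −1.13 (95% interval −1.99 to −0.26, limma interaction, unadjusted p = 0.0153, adjusted p = 1.00), so it did not pass the adjusted threshold. The co-culture control had 2 libraries, and the highest level of the gene was in 1 library, FFAs replicate 2 of co-culture.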

How the results depend on the processing

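The count of genes past the adjusted p was 0 as reported, 2 without the trend (RN7SL199P and RN7SL656P, listed at 0 in controls), 2 without the filter on low values, 1 with only the groups compared in the fit (HIST1H4K, adjusted p = 0.00359) and 0 to 1 when single libraries were left out (1 without control replicate 2). The count of higher genes (248) was 149 with means of at least 5 TPM, 378 without a filter, and 229 to 462 when single libraries were left out (462 without FFAs replicate 1). The count of lower genes (92) was 49 with means of at least 5 TPM, 183 without a filter, 171 after quantile normalization and 80 to 210 when single libraries were left out (210, 194 and 162 without control replicate 3, FFAs replicate 3 and control replicate 1). Genes past the adjusted p for the difference from co-culture numbered 2 without the trend, 2 without a filter and 0 to 1 without single libraries, and those for the difference from HepG2 0 to 1 (both 1 without control replicate 3). The cause of these shifts was not tested, apart from the number of genes tested, 10984 and 28444 under the other filters. Without single libraries, the log2 fold change ranged from −0.00058 (without control replicate 3) to 0.42 for ABCC3 and from −0.0143 (without control replicate 1) to 0.33 for ANGPTL4. The median of ribosomal proteins was −0.01 without control replicate 3. A fit with only the groups compared is the reported one for the difference from co-culture.

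Replicate numbers were not taken as pairs. Deviations of same-numbered control and FFAs libraries from their group means correlated at 0.077, 0.094 and 0.318 over all genes tested, and control replicate 1 correlated best with FFAs replicate 2 (0.112). Over genes of at least 5 TPM the values were 0.117, 0.127 and 0.396, all over 0.1, but control replicates 1 and 2 each correlated better with the FFAs library of the other number (0.130 and 0.146). Replicate 3 of either group correlated negatively with replicates 1 and 2 of the other group, at −0.185 to −0.152 over all genes tested. Over genes of at least 5 TPM these values were −0.250 to −0.216. A shared effect of replicate number therefore remains possible. With a replicate block, 0 genes passed the adjusted p, 333 were higher and 131 lower. An unadjusted p under 0.05 (limma) was found for 576 genes, beside 388 without the block.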

Other observations

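Some RNAs outside the protein-coding genes differed without overlap, and are named here after their values were seen. AL445524.1, a long noncoding RNA on chromosome 1, was at 13.4, 21.8 and 19.6 TPM in control and 5.42, 7.90 and 4.90 TPM with FFAs (log2 fold change −1.44, limma unadjusted p = 9.37e-05, adjusted p = 0.269). AC132217.1, which lies within the bounds of IGF2 on chromosome 11, was at 267, 214 and 242 TPM and then at 404, 284 and 447 TPM. IGF2, an insulin-like growth factor, was at 233, 223 and 182 TPM and then at 343, 240.1 and 314 TPM (0.48, unadjusted p = 0.00782). Both were higher in each FFAs library than in any control, and their reads may be shared. MIR4435-2HG, a host transcript of a microRNA, was at 33.8, 38.0 and 40.0 TPM and then at 48.1, 47.4 and 49.0 TPM, with very even FFAs libraries. Over all 1430 long noncoding RNAs tested, 102 were higher and 39 lower without overlap (7.13% and 2.73%), beside 615 and 256 of 12284 protein-coding genes (5.01% and 2.08%).

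Among abundant genes, PDHA1, the E1 alpha subunit of pyruvate dehydrogenase, was at 312, 297 and 293 TPM in control and 252, 237 and 266 TPM with FFAs (−0.26, unadjusted p = 0.0384). PDCD5 was at 221, 222 and 198 TPM and then at 257, 268 and 282 TPM (0.33, unadjusted p = 0.00347). Both were without overlap, and were named after their values were seen.

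COLCA1, which had the smallest p for the difference between cultures, was at 0.690, 0.170 and 0.480 TPM in control and 3.33, 3.22 and 1.81 TPM with FFAs in mono-culture. Replicate 3 listed the most genes above 0 TPM in every group of 3 libraries, among Caco-2 and HepG2 alike.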
